A study of Mus musculus with 80 samples.

Results

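The genes described here encode respiratory complexes II to V, which carry electrons to oxygen and make ATP in the inner mitochondrial membrane. They were taken by symbol: Sdha to Sdhd, Cyc1, every symbol that starts with Uqcr, Atp5, Cox4, Cox5, Cox6, Cox7 or Cox8, and mt-Cytb, mt-Co1, mt-Co2, mt-Co3, mt-Atp6 and mt-Atp8. The rule found 55 of the 27179 genes in the deposited count table, 49 of them nuclear and 6 mitochondrial. The nuclear genes number 4 for complex II, 10 for complex III, 18 for complex IV and 17 for complex V. The rule used no measured value. A filter on CPM (a gene's counts scaled by the library's total), which asked for 5 or more CPM in 8 or more libraries, kept 46 of the 55 genes, 40 nuclear and all 6 mitochondrial, among 13016 genes in all. The 9 genes left out were Sdhd, Uqcr11, Uqcrh-ps1, Cox7a2, Cox4i2, Cox8b, Cox7b2, Cox8c and Atp5c1-ps, and they were not tested.

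RNA was sequenced from 5 brain regions of 16 age-matched C57BL/6 females (C57BL/6J in the study's methods), 8 virgin and 8 primiparous, and each library came from 1 region of 1 mouse. Each primiparous female was penned with a male from 8 weeks of age, bore and weaned 1 litter, and was collected after weaning, 3 weeks by the sample labels but over a month by the study's methods, a conflict that was not settled here. Virgin females were group-housed in the same room and never met a male, so pregnancy, nursing and contact with a male cannot be told apart. The whole hypothalamus and the left side of the cerebellum, hippocampus, neocortex and amygdala were used, and the libraries of a region were pooled for sequencing, so region and pool cannot be told apart. The question was whether expression in a region still differs between the states after the young are weaned.

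Complex II, succinate dehydrogenase, is also an enzyme of the citric acid cycle and is made from nuclear genes alone. Complexes III and IV pass electrons through cytochrome c to oxygen and pump protons, complex V is the ATP synthase, and each of these combines nuclear subunits with mt-encoded core subunits that are copied from the mitochondrial genome by its own polymerase. Neurons depend heavily on this pathway because ion pumping and synaptic transmission use much ATP, and several complex IV subunits have isoforms that are used in different tissues.

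The 77 libraries held 7959192 to 37871854 counts with a median of 17623886, and the median was lowest in the hypothalamus (14543170). Of 25 markers chosen for the 5 regions, 21 were highest in the region they were chosen for. The exceptions were Wfs1, Fezf2, Etv1 and Rspo2. Some libraries stood apart. A neocortex library, primiparous 427, had a share of 4.63% of its counts in 612 short genes, against 2.47% to 3.32% in the other neocortex libraries. In the hippocampus, the summed level of 5 cerebellar markers reached 460 CPM in 1 primiparous library, against a primiparous median of 15.6 CPM and at most 15.3 CPM in virgin libraries. Animal numbers had 3 digits in 2 virgin and 7 primiparous mice and 4 digits in 6 virgin and 1 primiparous mice. What these number series stand for is not given in the sources used here, and results are given with and without them as a covariate.

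Nuclear genes of the respiratory chain are known targets of the transcription factors NRF1 and GABP. To show the recognition letters in these genes, promoter windows from 250 bases before to 50 bases after the transcription start (RefSeq, GRCm38.p6) were searched on both strands for GCGCATGCGC, the NRF1 palindrome of the half-site GCGCA and its reverse complement, and for CCGGAAG, a core bound by GABP and other ETS factors. Windows matched for 36 of the 49 nuclear genes. The NRF1 letters stood in 4 of 36 windows (11.1%), against 1.07% of the windows of all 27025 genes in the sequence table and 2.27% of those of genes that passed the filter. The GABP letters stood in 12 of 36 windows (33.3%), against 9.93% and 19% in those sets. The stretches around the NRF1 letters are shown for Atp5k, Cox6a1 and Atp5g2, the genes in which the letters lie before the start. By the test described below, Atp5k and Atp5g2 were higher in the primiparous hypothalamus and Cox6a1 did not pass the threshold. A link between the letters and the differences was not tested. Capitals mark the 10 letters, all genes lie on the minus strand, and each stretch runs 5′ to 3′ on that strand.
Atp5k, chr5:108434415-108434474: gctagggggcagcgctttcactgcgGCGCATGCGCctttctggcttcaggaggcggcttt
Cox6a1, chr5:115349086-115349145: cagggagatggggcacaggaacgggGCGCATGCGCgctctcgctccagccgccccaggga
Atp5g2, chr15:102671055-102671114: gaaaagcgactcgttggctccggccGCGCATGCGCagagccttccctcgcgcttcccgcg
The letters began 50, 162 and 42 bases before the start of Atp5k, Cox6a1 and Atp5g2. In Uqcrc1, a core protein of complex III, they began 30 bases after it, and this gene did not pass the threshold in the hypothalamus either. A match describes the letters in this window and no binding was measured.

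In the hypothalamus, mitochondrially encoded transcripts were lower in primiparous than in virgin females, and the nuclear genes of complexes II to V moved in both directions. By edgeR's quasi-likelihood test with Benjamini-Hochberg adjustment over all 13016 genes, 5 of 6 mitochondrial genes were lower and 14 of 40 nuclear genes differed, 10 higher and 4 lower. Over all genes tested in the hypothalamus 22.6% were called, 10.8% higher and 11.8% lower. Without the primiparous library 421 the nuclear count was 6 (3 higher and 3 lower, against 16% of all genes), without the virgin library 409 it was 20 (16 higher and 4 lower, against 30.2%), and with the animal number series as a covariate it was 0. With all libraries, the share of nuclear genes called higher was above that over all genes. Without library 421, the nuclear share called in both directions together was not above that over all genes. The share of all genes called higher is not given for that fit. The median log2 fold change was 0.06 over the 40 nuclear genes, -0.49 over the 6 mitochondrial genes and 0.01 over all genes. In bulk tissue, fewer cells of a type and less RNA per cell cannot be told apart.

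Mt-Cytb encodes cytochrome b, the mitochondrial subunit of complex III (chrM:14145-15288, plus strand, mm10). It ranged from 7305 to 8433 CPM with a median of 8061 in 8 virgin hypothalami, and from 5364 to 7051 CPM with a median of 6210 in 8 primiparous hypothalami. Every primiparous library lay under every virgin library. The log2 fold change of mt-Cytb was -0.38 ± 0.054 (SE; edgeR adjusted p = 0.000386). Mt-Co1 encodes the catalytic subunit of complex IV (chrM:5328-6872) and was the most abundant of these transcripts per kilobase in each region. Its virgin libraries ran from 13893 to 16451 CPM (median 15752) and its primiparous libraries from 9704 to 12529 CPM (median 11149). These groups did not overlap either, and the log2 fold change of mt-Co1 was -0.51 ± 0.055 (SE; edgeR adjusted p = 9.05e-06).

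Mt-Co2 and mt-Co3 encode the other mitochondrial subunits of complex IV, and mt-Atp6 and mt-Atp8 encode membrane subunits of ATP synthase. Mt-Co2 (chrM:7013-7696) was 78.8 to 110 CPM (median 90.8) in virgin and 40.1 to 79.6 CPM (median 59.2) in primiparous hypothalami, and 7 of 8 primiparous libraries lay under the lowest virgin library. Its log2 fold change was -0.63 ± 0.13 (SE; edgeR adjusted p = 0.00364). Mt-Atp6 (chrM:7927-8607) was 51.8 to 76.9 CPM (median 66.5) in virgin and 26.9 to 60.6 CPM (median 43.2) in primiparous hypothalami, with 6 of 8 primiparous libraries under the lowest virgin one. The log2 fold change of mt-Atp6 was -0.56 ± 0.14 (edgeR adjusted p = 0.00980), and that of mt-Co3 (chrM:8607-9390), whose medians were 63.6 and 43.6 CPM, was -0.48 ± 0.16 (edgeR adjusted p = 0.0356). The fall in mt-Co3 lost its call when any of 7 of the 16 libraries was left out. Mt-Atp8 (chrM:7766-7969) had medians of 10.1 CPM in virgin and 7.58 CPM in primiparous hypothalami and did not pass the threshold (log2 fold change -0.46 ± 0.17, edgeR adjusted p = 0.0594).

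The levels of the 6 mitochondrial genes are not equally well measured. The authors counted reads that map to a single place, and 99.9%, 99.5% and 99.5% of the 100-base windows of mt-Co3, mt-Atp6 and mt-Co2 occur also in nuclear pseudogenes (Gm28437, Gm10925 and Gm28661), as do 30.8% of those of mt-Co1. For mt-Cytb and mt-Atp8 no window was shared. Mt-Atp8 overlaps mt-Atp6 in the genome, where reads cannot be assigned to one of these genes. Per kilobase of exon, the mean level in the hypothalamus was 8610 CPM for mt-Co1 and 6225 CPM for mt-Cytb but 73.4 CPM for mt-Co3. Over all libraries mt-Atp8, which shares no window, averaged 17.7 CPM with 204 bases of exon, and mt-Co3 averaged 102 CPM with 784 bases. The windows were compared with annotated transcripts only, so copies elsewhere in the genome were not searched for. The part of shared windows in these levels was not tested.

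**Figure D1:**
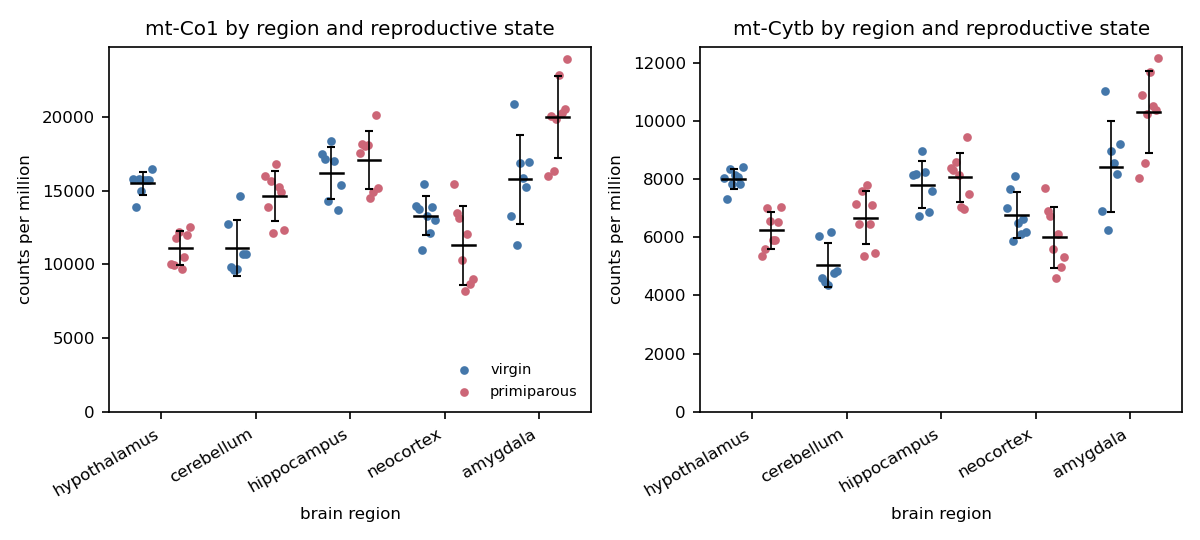
Levels of mt-Co1 (left) and mt-Cytb (right) in each library (vertical axes, CPM, starting at 0) for the 5 brain regions (horizontal axis), with a point for each virgin and primiparous library and a line and bar for each group's mean and SD. In the hypothalamus the primiparous libraries of mt-Co1 (9704 to 12529 CPM) and mt-Cytb (5364 to 7051 CPM) lie under all virgin libraries, while in the cerebellum the primiparous means are the higher ones.

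Among nuclear genes of complex II, Sdhc, a membrane anchor of the enzyme, was higher in the primiparous hypothalamus (log2 fold change 0.18 ± 0.058, edgeR adjusted p = 0.0300). Its medians were 81.1 CPM in virgin and 94.0 CPM in primiparous libraries, and the groups overlapped (73.4 to 89.3 and 79.1 to 104 CPM). Sdha, the flavoprotein that holds the active site, and Sdhb, the iron-sulfur subunit, had log2 fold changes of -0.01 and 0.01 and were not called.

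In complex III, 2 of 8 nuclear genes rose and 1 fell. Uqcr10 and Uqcrq, small subunits of the complex, rose by 0.28 ± 0.085 (edgeR adjusted p = 0.0231) and 0.24 ± 0.074 (edgeR adjusted p = 0.0236) on the log2 scale. Uqcr10 was 56.1 to 75.5 CPM (median 60.3) in virgin and 60.6 to 104 CPM (median 75.5) in primiparous libraries, so the groups overlapped, and its call was lost without primiparous library 421 (log2 fold change 0.20) or virgin library 4491 (0.26). Uqcrb, a subunit that binds ubiquinone, fell by 0.26 on the log2 scale (SE 0.066, edgeR adjusted p = 0.00874). It was 60.1 to 65.4 CPM in virgin and 39.8 to 60.7 CPM in primiparous libraries, and the groups met only at their edges.

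In complex IV, 2 of 13 nuclear genes rose and none of the 13 fell. Cox5b, a structural subunit on the matrix side, was 106 to 140 CPM (median 111) in virgin and 121 to 159 CPM (median 136) in primiparous hypothalami. All 8 primiparous libraries were above the virgin mean, and the log2 fold change was 0.24 ± 0.064 (SE; edgeR adjusted p = 0.0100). Cox4i1, the ubiquitous form of subunit 4, had medians of 346 and 429 CPM in virgin and primiparous libraries and a log2 fold change of 0.21 ± 0.067 (edgeR adjusted p = 0.0291). A share of 8.09% of the windows of Cox5b occurs in the pseudogene Gm11273, and Cox4i1 shares 8.26% of its windows with its overlapping neighbour Emc8. The library kit is taken here not to mark strand, so that reads in such an overlap cannot be told apart.

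Complex V held the most calls, 8 of 16 nuclear genes, 5 higher and 3 lower, and also the most tested genes. Over all genes in the hypothalamus 22.6% were called, 10.8% higher and 11.8% lower. Without primiparous library 421, only 6 nuclear genes of all complexes together were called, so the count of 8 did not hold. Atp5k, subunit e of the membrane part, was 33.1 to 55.03 CPM (median 38.9) in virgin and 40.4 to 63.6 CPM (median 51.1) in primiparous hypothalami, and its log2 fold change was 0.31 ± 0.094 (edgeR adjusted p = 0.0208). Atp5d, the delta subunit of the rotor, was 44.997 to 63.3 CPM (median 48.0) and 49.5 to 92.6 CPM (median 60.9), with a log2 fold change of 0.31 ± 0.097 (edgeR adjusted p = 0.0245). In both genes the groups overlapped. Without the primiparous library 421, the highest one for Atp5d, the log2 fold changes were 0.21 for Atp5d and 0.26 for Atp5k and neither gene was called, and Atp5d also lost its call without the virgin library 4488 (0.29). Atp5l, subunit g, was 57.5 to 68.1 CPM (median 64.2) in virgin and 64.3 to 94.3 CPM (median 77.0) in primiparous libraries, and rose by 0.27 ± 0.066 on the log2 scale (edgeR adjusted p = 0.00708).

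Atp5g1 and Atp5g2, which encode the same mature c-ring subunit, rose by 0.24 (edgeR adjusted p = 0.0194) and 0.22 (edgeR adjusted p = 0.0428) on the log2 scale. The third gene for this subunit, Atp5g3, had a log2 fold change of 0.04 and was not called. Of the genes that fell, Atp5c1, the gamma subunit that forms the central stalk, was 189 to 211 CPM (median 206) in virgin and 164 to 186 CPM (median 178) in primiparous hypothalami. The groups of Atp5c1 did not overlap, and it fell by 0.21 on the log2 scale (SE 0.042, edgeR adjusted p = 0.00277). Atp5f1, subunit b of the outer stalk, fell by 0.21 (SE 0.046, edgeR adjusted p = 0.00428) from a median of 211 to 187 CPM, with 1 narrow overlap near 201 CPM. Atp5s, named for a coupling factor of the synthase, fell by 0.29 (edgeR adjusted p = 0.0369) from a median of 18.9 to 14.7 CPM.

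**Figure D2:**
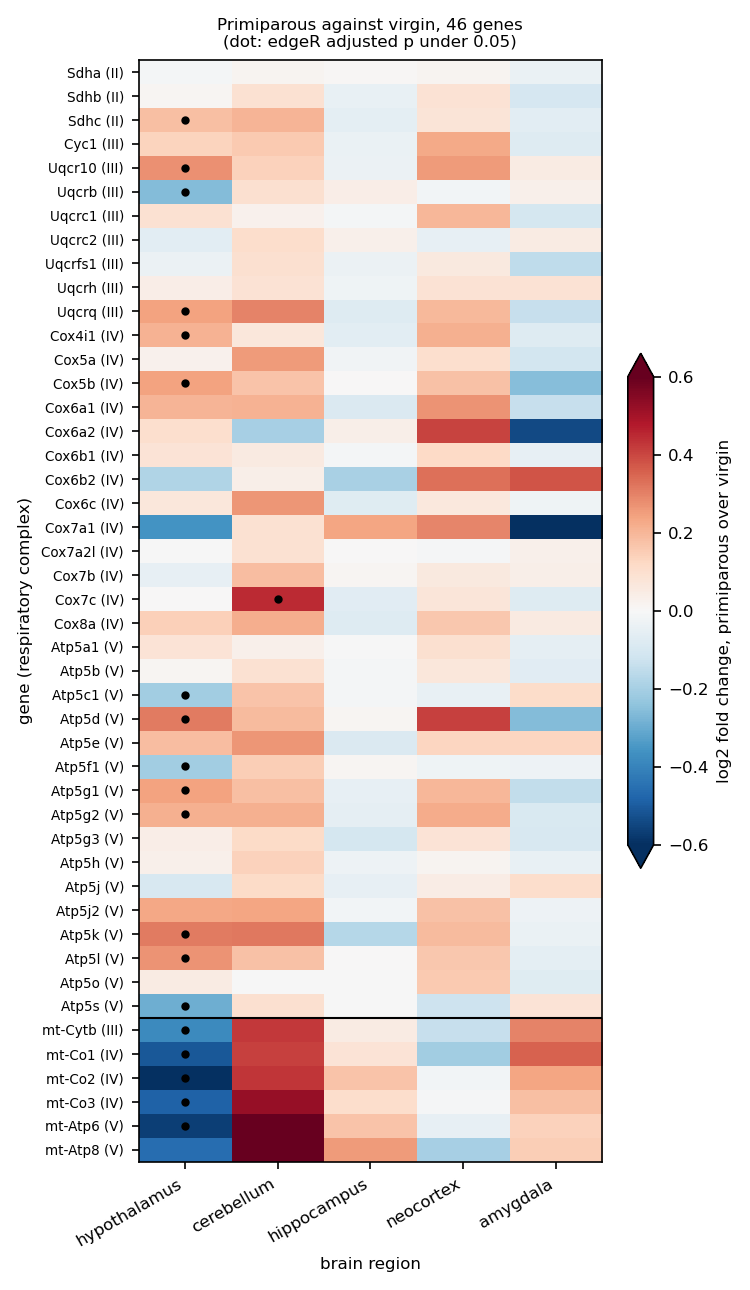
Log2 fold change, primiparous over virgin, of the 46 tested genes (vertical axis, ordered by complex, mitochondrial genes apart) in the 5 regions (horizontal axis), as colours between -0.6 and 0.6 with marks on the genes past the edgeR threshold. The marks stand in the hypothalamus (14 nuclear and 5 mitochondrial genes) and on Cox7c in the cerebellum, and the mitochondrial genes are of opposite colour in these regions.

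The hypothalamic calls are set beside base composition, the number series and markers of other cells. Over all genes in the hypothalamus, the median log2 fold change was -0.29 for genes under 40% GC and 0.18 for genes at 55% GC or more, and it was 0.12 for genes under 1500 bases. Among the nuclear respiratory genes, those that rose had a median GC of 52.0%, those that fell 40.3% and those not called 49.9%, while the mitochondrial genes had 31.9% to 39.9%. After a correction for length and GC content, 8 nuclear genes (7 higher and 1 lower) and 2 mitochondrial genes were called, at 3.18% of all genes. Of the 8 nuclear genes, 6 were called in both fits, namely Atp5c1, Atp5g1, Atp5l, Cox5b, Sdhc and Uqcrq, and 2, Cox5a and Cox7c, were new. Mt-Co1 and mt-Cytb stayed lower after it (log2 fold changes -0.27 and -0.14, edgeR adjusted p = 2.53e-05 and 0.0242).

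With the animal number series as a covariate, no nuclear gene of these complexes was called and mt-Co1 alone of the mitochondrial genes was (log2 fold change -0.42 ± 0.063, edgeR adjusted p = 0.00452), at 3 of 13016 genes in all (0.023%). Within the 3-digit series the virgin libraries of mt-Co1 were 13893 and 15773 CPM, and the 7 primiparous libraries ran from 9704 to 12205 CPM. Within the 4-digit series the lone primiparous library was 12529 CPM and the 6 virgin libraries were 14990 to 16451 CPM. With 2 virgin libraries in the 3-digit series and 1 primiparous library in the 4-digit series, no test was made within a series, and the part of the number series in the difference was not tested.

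Markers of blood cells, astrocytes and other cells were measured beside these genes. The counts of markers called stand against 22.6% of all genes called in the hypothalamus (10.8% higher and 11.8% lower). They are not read as changes in cell content. Of 5 blood markers, 4 were in the table, 3 passed the filter and 2, Hba-a2 and Alas2, were higher in the primiparous hypothalamus, with summed levels of 25.2 to 53.5 CPM in virgin and 32.0 to 103 CPM in primiparous libraries. Of 6 markers each, 2 astrocyte markers (Slc1a2 and Slc1a3) were lower, 1 oligodendrocyte marker was higher and 1 lower, 1 neuronal marker (Rbfox3) was higher and 2 (Snap25 and Syt1) lower, 1 endothelial marker (Cldn5) was higher and no microglial marker was called. Of 5 choroid plexus markers 3 were tested, and 1, Ttr, was higher. The summed astrocyte level was 3084 to 3663 CPM in virgin and 2806 to 3958 CPM in primiparous hypothalami. Among the 5 markers chosen for each region, the hypothalamic Pmch and the amygdalar Etv1 were lower in primiparous hypothalami (log2 fold changes -0.56 and -0.39), and the hippocampal C1ql2 (0.39) and Wfs1 (0.24) and the cerebellar Pcp2 (1.90) were higher. Pcp2 averaged only 0.586 CPM in the hypothalamus, so its change lies near the floor. Most of the cerebellar sum there was Car8, at 18.8 CPM on average. The hippocampal markers summed to 138 to 176 CPM in virgin and 143 to 203 CPM in primiparous hypothalami, and the cerebellar ones to 17.6 to 28.4 and 16.6 to 30.5 CPM. The part of base composition, number series, dissection and cell content in the calls of complexes II to V was not tested beyond these fits.

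**Figure D3:**
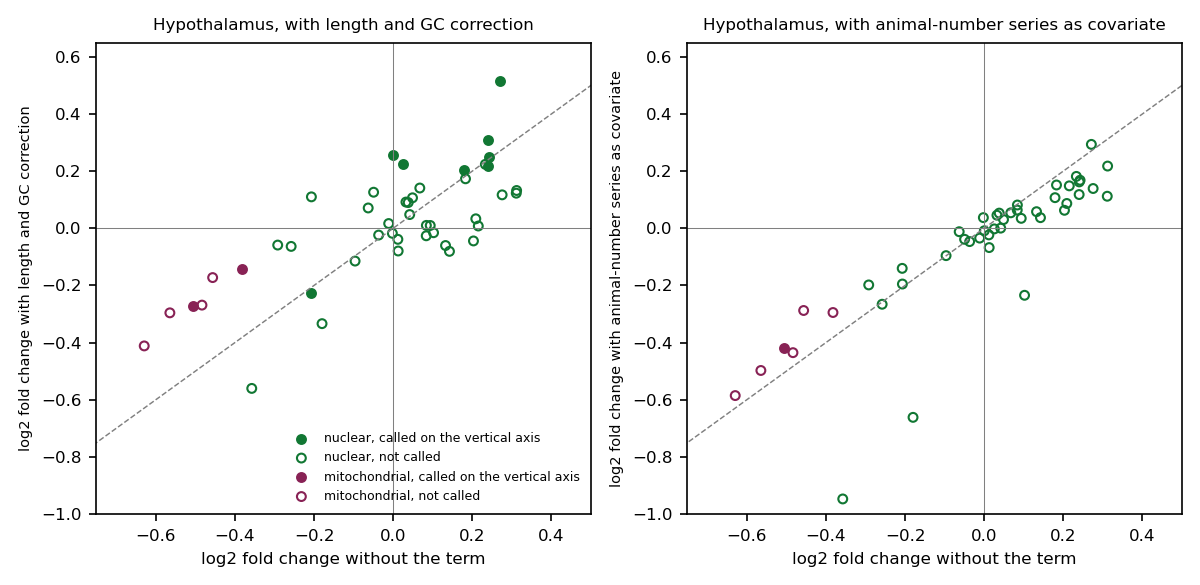
Log2 fold change in the hypothalamus of the 46 tested genes without (horizontal axes) and with (vertical axes) the length and GC correction (left) or the number series covariate (right), with filled points for genes called on the vertical axis and a dashed line where both values are equal. The 6 mitochondrial genes lie under 0 on every axis, and mt-Co1 moves from -0.51 to -0.27 with the correction and to -0.42 with the covariate.

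In the cerebellum the same mitochondrial genes leaned the other way and 1 nuclear gene was called. The edgeR test called 1 of 40 nuclear and 0 of 6 mitochondrial genes, against 0.707% of all genes in the cerebellum (0.599% higher and 0.108% lower). At an unadjusted p under 0.05 there were 19 nuclear and 6 mitochondrial genes, against 19.5% of all genes. The median log2 fold change was 0.14 over the nuclear genes, of which 38 of 40 were positive, 0.48 over the mitochondrial genes and 0.01 over all genes. The nuclear median was 0.06 with 31 positive after the length and GC correction and 0.08 with 33 positive under the number series covariate, and all genes under 1500 bases had a median of 0.12 in the cerebellum.

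Cox7c, a small subunit of complex IV, was 64.2 to 79.0 CPM (median 71.8) in 7 virgin and 81.1 to 124 CPM (median 91.4) in 8 primiparous cerebella. The groups did not overlap, and the log2 fold change was 0.45 ± 0.086 (SE; edgeR adjusted p = 0.0214). A share of 19.7% of the windows of Cox7c occurs in other genes, most of them in the pseudogene Gm10012. Its call was lost when either of 2 of the 15 libraries was left out and under the number series covariate (log2 fold change 0.37, edgeR adjusted p = 0.709).

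Mt-Co1 was 9596 to 14635 CPM (median 10703) in virgin and 12167 to 16828 CPM (median 15090) in primiparous cerebella, and mt-Cytb was 4369 to 6185 CPM (median 4778) and 5356 to 7797 CPM (median 6799). All 8 primiparous libraries were above the virgin mean in both genes, yet the groups overlapped. Their log2 fold changes were 0.41 ± 0.10 and 0.42 ± 0.10 (edgeR adjusted p = 0.0652 and 0.0633), and mt-Atp8 had the largest value of the 6, 0.75 ± 0.19 (edgeR adjusted p = 0.0652). Mt-Atp6, mt-Co3 and mt-Co2 had log2 fold changes of 0.62, 0.52 and 0.43. Without the primiparous library 4493, all 6 mitochondrial and 11 nuclear genes were called higher, at 6.94% of all genes. Animal 4493 was the only primiparous mouse of the 4-digit number series, so that fit held no primiparous library of this series. DESeq2 called 5 mitochondrial and 5 nuclear genes (3.88% of all genes), limma-voom 2 and 1 (0.553%), and the number series covariate left 0 of each (0%).

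Among cell markers in the cerebellum, 2 of 6 microglial markers (C1qa and C1qb), 1 of 6 oligodendrocyte markers (Mbp) and 1 of 6 astrocyte markers (Aqp4) were higher in primiparous libraries. The share of all genes called higher there was 0.599%. The summed microglial level was 83.3 to 97.0 CPM in virgin and 96.8 to 122 CPM in primiparous cerebella. The 3 tested blood markers had log2 fold changes of 0.76 to 1.05 with edgeR adjusted p from 0.0527 to 0.0652, and the blood sum was 41.6 to 61.3 CPM in virgin and 45.5 to 151 CPM (median 95.3) in primiparous cerebella. No neuronal, endothelial, blood or choroid plexus marker was called, although summed choroid plexus levels ran from 34.7 to 1292 CPM in virgin and from 45.3 to 3585 CPM in primiparous libraries. Their part in the respiratory genes' values was not tested.

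In the hippocampus, neocortex and amygdala, edgeR called 0 of 46 genes of complexes II to V, and 0% of all genes in each of these regions. Of 40 nuclear genes, 11 were positive in the hippocampus, 34 in the neocortex and 12 in the amygdala. Their median log2 fold changes were -0.02, 0.11 and -0.05 in these regions. At an unadjusted p under 0.05 there were 2, 5 and 5 of 40 nuclear genes and 0, 0 and 3 of 6 mitochondrial genes, against 7.38%, 9.8% and 11.9% of all genes, so the nuclear counts were near these shares. DESeq2 called 2 nuclear genes in the amygdala, both lower (0.73% of all genes), and none of the 46 genes in the hippocampus (0.0922%) or the neocortex (0.0307%), and limma-voom called none in these regions (0%). In the hippocampus the smallest p belonged to Atp5g3 (log2 fold change -0.11 ± 0.038, edgeR adjusted p = 0.599). In the neocortex it belonged to Atp5d (0.41 ± 0.11, edgeR adjusted p = 0.479), and in the amygdala to Cox5b (-0.25 ± 0.061, edgeR adjusted p = 0.162). Cox5b was lower in all 8 primiparous amygdala libraries than the virgin mean.

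No mitochondrial gene was called in these regions, and their log2 fold changes were all above 0 in the hippocampus and the amygdala and all below 0 in the neocortex. In the hippocampus their log2 fold changes ran from 0.05 (mt-Cytb) over 0.08 (mt-Co1), 0.10 (mt-Co3), 0.17 (mt-Co2) and 0.17 (mt-Atp6) to 0.26 (mt-Atp8). In the neocortex they were -0.21 (mt-Co1), -0.20 (mt-Atp8), -0.14 (mt-Cytb), -0.05 (mt-Atp6), -0.02 (mt-Co2) and -0.01 (mt-Co3). In the amygdala they were 0.35 (mt-Co1), 0.30 (mt-Cytb), 0.24 (mt-Co2), 0.18 (mt-Co3), 0.15 (mt-Atp8) and 0.14 (mt-Atp6). Several of these small values change sign with the processing. The edgeR adjusted p of mt-Co1 in the amygdala was 0.253, and all 8 primiparous libraries were above the virgin mean.

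Whether the change with parity was unequal in 2 regions was examined by an interaction term, in 7 pairs of regions that include the hypothalamus or the cerebellum and share libraries. Between cerebellum and hypothalamus, 11 genes differed, all more positive in the cerebellum, against 15.5% of all genes (9.54% in this direction and 5.94% in the other). They were all 6 mitochondrial genes and 5 of 40 nuclear genes, Uqcrb, Cox7c, Atp5c1, Atp5f1 and Cox5a, a nuclear share not above that over all genes. With the animal as a replicate block and the length and GC correction together, 5 of the 46 genes were called (5.18% of all genes). For mt-Co1 the difference of log2 fold changes was 0.93 ± 0.11 (SE; edgeR adjusted p = 2.65e-05), and for mt-Cytb it was 0.81 ± 0.12 (edgeR adjusted p = 0.000160). For Atp5c1 it was 0.39 ± 0.069 (edgeR adjusted p = 0.000778).

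Between hypothalamus and amygdala 13 genes differed, 8 of 40 nuclear and 5 of 6 mitochondrial, against 18.2% of all genes, so the nuclear share was close to that over all genes. With the replicate block and the correction together 7 were called (0.791% of all genes). The hypothalamus was the more positive for Cox5b, Atp5d, Uqcrq, Atp5g1, Cox4i1 and Atp5l (9.78% of all genes) and the more negative for Uqcrb, Atp5c1, mt-Co1, mt-Co2, mt-Atp6, mt-Co3 and mt-Cytb (8.45%). Among the nuclear genes called, the largest difference was 0.58 ± 0.13 for Atp5d, and Cox5b differed by 0.50 ± 0.090 (edgeR adjusted p = 0.00236 and 0.000764). The smallest p belonged to mt-Co1 at -0.85 ± 0.13 (edgeR adjusted p = 0.000264).

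Between hypothalamus and hippocampus 10 genes differed, 6 of 40 nuclear and 4 of 6 mitochondrial, against 17.2% of all genes, so the nuclear share was not above that over all genes. Sdhc, Uqcrq and Atp5k were more positive in the hypothalamus (6.81% of all genes), and Uqcrb, Atp5c1, Atp5f1, mt-Co1, mt-Co2, mt-Atp6 and mt-Cytb more negative (10.4%). Mt-Co1 differed by -0.60 ± 0.098 (edgeR adjusted p = 0.00127). With the animal as a replicate block, this count was 6 (11.1% of all genes), and with the length and GC correction as well it was 1 (0.361%).

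Cerebellum and amygdala differed in 2 genes, Cox7c by 0.53 ± 0.11 and Cox5b by 0.43 ± 0.095 (edgeR adjusted p = 0.0384 and 0.0390), against 0.415% of all genes (0.361% in this direction). With the replicate block 1 gene was called (0.246% of all genes), and with the correction as well 0 were (0.131%). Between cerebellum and hippocampus edgeR called 0 genes, against 0.169% of all genes, with 18 of 46 at an unadjusted p under 0.05 (15.3% of all genes), and Cox7c was the nearest at 0.51 ± 0.13 (edgeR adjusted p = 0.0547). There the replicate block called 1 gene (0.353% of all genes), also with the correction (0.469%), and 7 genes were called without the cerebellar library 4493 (2.87%). Neither the cerebellum (0.00768% of all genes) nor the hypothalamus (0% of all genes) differed from the neocortex in any of the 46 genes by edgeR. At an unadjusted p under 0.05 these counts were 7 and 5, against 13.4% and 2.58% of all genes. In each pair 5 of 6 mitochondrial genes were among them, with 2 of 40 nuclear genes for the cerebellum and 0 of 40 for the hypothalamus. The smallest p were those of mt-Cytb at 0.56 ± 0.14 (edgeR adjusted p = 0.189) and mt-Co2 at -0.61 ± 0.21 (edgeR adjusted p = 1.00). At the adjusted threshold, the hypothalamic difference of the mitochondrial genes is therefore not shown to differ from that in the neocortex.

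With both states in the same fit, more of these genes were called between regions than between states, and the same held over all genes. In size this did not hold for every gene. In the hypothalamus, mt-Co1 and mt-Cytb differed more between the states than from the other regions. Each region was compared with the mean of the other 4 in 1 edgeR fit of all 10 groups, and each of these tests carries the pool of its region. The summed CPM of the nuclear genes was 8811 ± 657 (SD, n = 15) in the cerebellum, 8074 ± 1209 (n = 16) in the neocortex, 6899 ± 375 (n = 16) in the hypothalamus, 6824 ± 289 (n = 15) in the hippocampus and 6611 ± 309 (n = 15) in the amygdala. The last 3 overlapped widely. The order of the mitochondrial sums was another, with 28170 ± 5376 CPM in the amygdala, 24937 ± 2704 in the hippocampus, 20622 ± 3536 in the hypothalamus, 19111 ± 3709 in the cerebellum and 18941 ± 3265 in the neocortex, and neighbours in this order overlapped. For hypothalamus, cerebellum and neocortex this pooled order held in neither state. Virgin means were 23755 CPM in the hypothalamus, 20338 in the neocortex and 16325 in the cerebellum. Primiparous means were 21548 CPM in the cerebellum, 17543 in the neocortex and 17488 in the hypothalamus.

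Of the 40 nuclear genes, 26 had their highest mean in the cerebellum, 11 in the neocortex and 3 in the hypothalamus. The 26 include Cox7a1 and Cox6b2 and the 11 include Cox6a2, which passed the filter through the regions where they are high. Their places are therefore a description only, and no share over all genes is given for this order. The lowest mean fell in the amygdala for 16, the hippocampus for 11, the hypothalamus for 10, the cerebellum for 2 and the neocortex for 1. In the cerebellum 30 nuclear genes were higher and 5 lower than in the other regions, against 82.4% of all genes called (42.3% higher and 40.2% lower). In the neocortex 32 were higher and 3 lower, against 73.9% (37.7% and 36.2%). The share called higher in these regions was thus above that over all genes.

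In the hypothalamus 3 nuclear genes were higher and 30 lower, against 77.6% of all genes (38.5% higher and 39.1% lower). The amygdala had 5 higher and 20 lower, against 66.6% (33.3% and 33.2%), and the hippocampus 2 higher and 17 lower, against 66.5% (32.4% and 34.1%). All 6 mitochondrial genes were lower in the hypothalamus, the cerebellum and the neocortex and higher in the amygdala, and 4 of 6 were higher in the hippocampus. In the cerebellum and the neocortex most nuclear and all mitochondrial genes stood on opposite sides. Cox6a2, Cox6b2 and Cox7a1 passed the filter through the regions where they are high, and without them the nuclear counts out of 37 were 3 higher and 27 lower for the hypothalamus, 28 and 4 for the cerebellum, 2 and 15 for the hippocampus, 31 and 2 for the neocortex and 4 and 19 for the amygdala.

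By complex, the 8 tested nuclear genes of complex III were all higher in the cerebellum, with log2 differences of 0.14 to 0.45, and 7 of 8 were higher in the neocortex. In the hypothalamus 11 of 13 nuclear genes of complex IV were lower with a median log2 difference of -0.47, or 8 of 10 with -0.38 without the 3 genes just named, against -0.13 in complex III and -0.16 in complex V. In complex V 13 of 16 were higher in the cerebellum, 13 in the neocortex and 0 in the hippocampus, and 13 were lower in the hypothalamus. Atp5b, the catalytic beta subunit, was the most abundant nuclear gene in CPM, with a mean of 1667 ± 124 CPM (SD) in the cerebellum and 1045 ± 59.0 CPM in the amygdala.

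**Figure D4:**
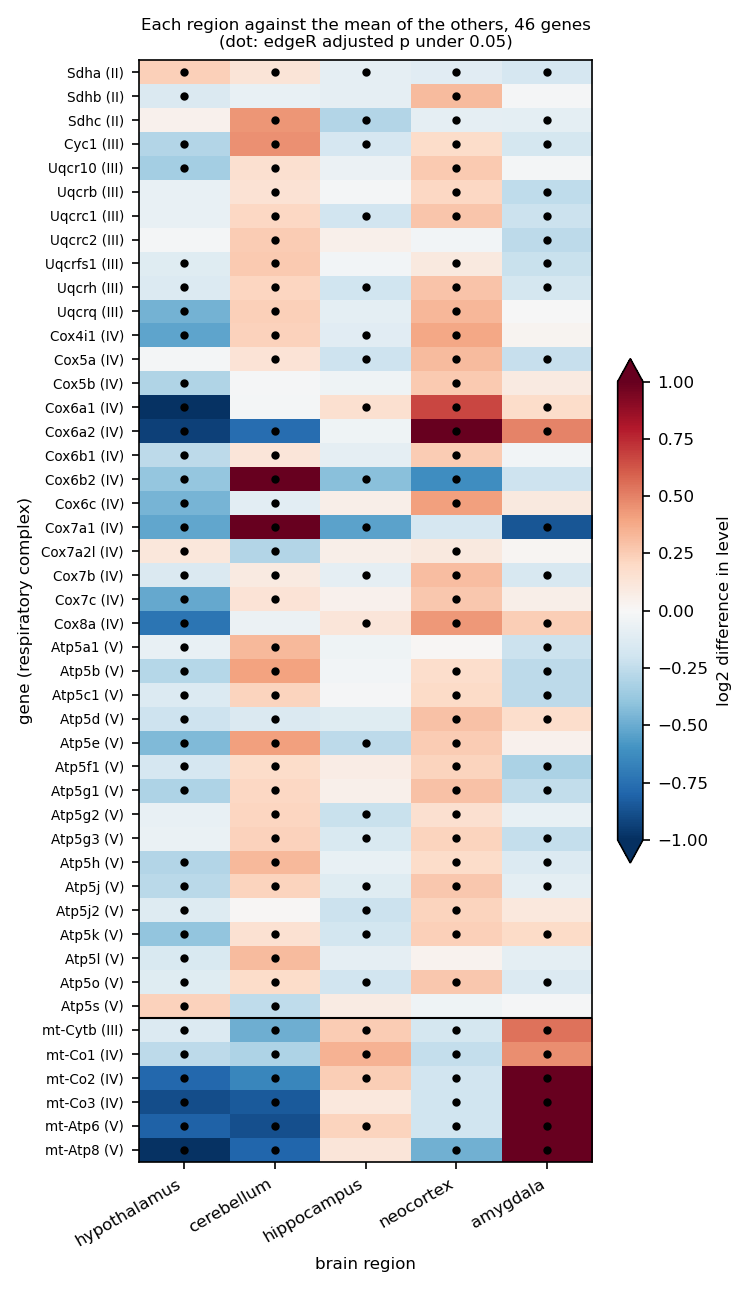
Log2 difference of each region from the mean of the other regions for the 46 tested genes (vertical axis, by complex, mitochondrial genes apart) in the 5 regions (horizontal axis), as colours that saturate at -1.0 and 1.0, with marks on genes past the edgeR threshold. Most nuclear genes are above 0 in the cerebellum and the neocortex and below 0 in the hypothalamus, and the mitochondrial genes are highest in the amygdala.

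Complex II showed a mixed order. Sdha was highest in the hypothalamus at 602 ± 25.3 CPM (SD, n = 16), then 563 ± 34.3 CPM in the cerebellum, 458 ± 19.4 in the neocortex, 453 ± 13.6 in the hippocampus and 435 ± 24.5 in the amygdala. The ranges of hypothalamus and cerebellum overlapped, both lay above all libraries of the other regions, and the hypothalamic log2 difference was 0.24 ± 0.022 (edgeR adjusted p = 1.92e-16). Sdhb was highest in the neocortex (135 ± 24.7 CPM) and lowest in the hippocampus (106 ± 6.66 CPM), and Sdhc was highest in the cerebellum (109 ± 12.9 CPM) and lowest in the hippocampus (65.5 ± 3.62 CPM). Sdhd, the other membrane anchor, is listed with 4 to 16 counts per region and at most 0.320 CPM in any library, although it shares no window with another gene. Why it is near 0 in this table was not tested, and no value is drawn from it.

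The paired isoforms of complex IV subunits were measured side by side, with each gene in CPM per kilobase where levels of different genes are compared. Cox6a1, the ubiquitous form of subunit 6a, was 164 ± 26.4 CPM (SD) in the hypothalamus, 279 ± 27.2 in the hippocampus, 281 ± 39.0 in the cerebellum, 284 ± 37.5 in the amygdala and 380 ± 85.3 in the neocortex. The hypothalamic libraries (127 to 214 CPM) overlapped those of the cerebellum (190 to 342 CPM) at the edge and lay under every library of the hippocampus, amygdala and neocortex. The hypothalamic log2 difference was -0.99 ± 0.059 (edgeR adjusted p = 5.20e-26) and the neocortical one was 0.67 ± 0.053 (edgeR adjusted p = 2.71e-19). Cox6a2, the heart and muscle form, was 6.42 ± 1.93 CPM in the neocortex, 4.15 ± 1.62 in the amygdala, 3.06 ± 0.692 in the hippocampus, 2.24 ± 0.610 in the cerebellum and 2.05 ± 0.799 in the hypothalamus. Its neocortical log2 difference was 1.25, given without a test because Cox6a2 passed the filter through 14 neocortical and 4 amygdalar libraries. In the neocortex Cox6a2 stood at 9.45 CPM per kilobase against 541 CPM per kilobase for Cox6a1.

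Cox7a1, the heart and muscle form of subunit 7a, was 5.77 ± 1.09 CPM in the cerebellum and 1.08 to 1.55 CPM on average in the other regions. No cerebellar library overlapped another region, and the log2 difference was 2.08, while it was -0.85 in the amygdala. Cox7a1 passed the filter through 11 cerebellar libraries alone, so it had to differ between regions and its differences are a description without a test. Cox6b2, the form of subunit 6b known from testis, was 6.16 ± 1.07 CPM in the cerebellum and 1.65 to 2.04 CPM on average elsewhere, again without overlap (log2 difference 1.63). It too passed the filter through cerebellar libraries alone, 13 of them, so no test is given for it. Its ubiquitous partner Cox6b1 was 126 to 156 CPM on average, with a cerebellar log2 difference of 0.12. In the cerebellum Cox6b2 stood at 5.56 CPM per kilobase against 220 CPM per kilobase for Cox6b1. Cox7a1 and Cox6b2 had log2 differences of -0.53 and -0.41 in the hippocampus, and Cox6b2 was at -0.62 in the neocortex, where the mean of the other regions holds the high cerebellar level.

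Cox8a, the ubiquitous form of subunit 8, was 202 ± 24.4 CPM in the hypothalamus and 292 to 355 CPM on average in the other regions (hypothalamic log2 difference -0.73 ± 0.048, edgeR adjusted p = 5.37e-24). Cox4i1 was 394 ± 54.0 CPM in the hypothalamus, 447 ± 41.6 in the hippocampus, 484 ± 47.8 in the amygdala, 596 ± 58.7 in the cerebellum and 603 ± 141 in the neocortex. Its inducible partner Cox4i2, which did not pass the filter, was 2.62 ± 0.631 CPM in the cerebellum and 0.838 to 1.5006 CPM on average elsewhere. Cox8b averaged 0.0664 to 0.798 CPM, and Cox7a2, the liver-type partner of Cox7a1, averaged 1.42 to 2.44 CPM. Cox7a2 shares no window with another gene, and why it is this low in the table was not tested, so these values are not read as its expression. Cox8c had 2 counts in the hypothalamus and 0 in the other regions. The muscle markers summed to at most 3.89 CPM in any cerebellar library, where the muscle form Cox7a1 was highest, and to 12.7 to 22.5 CPM in neocortical libraries, where the muscle form Cox6a2 was highest. Their part in the levels of these forms was not tested.

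**Figure D5:**
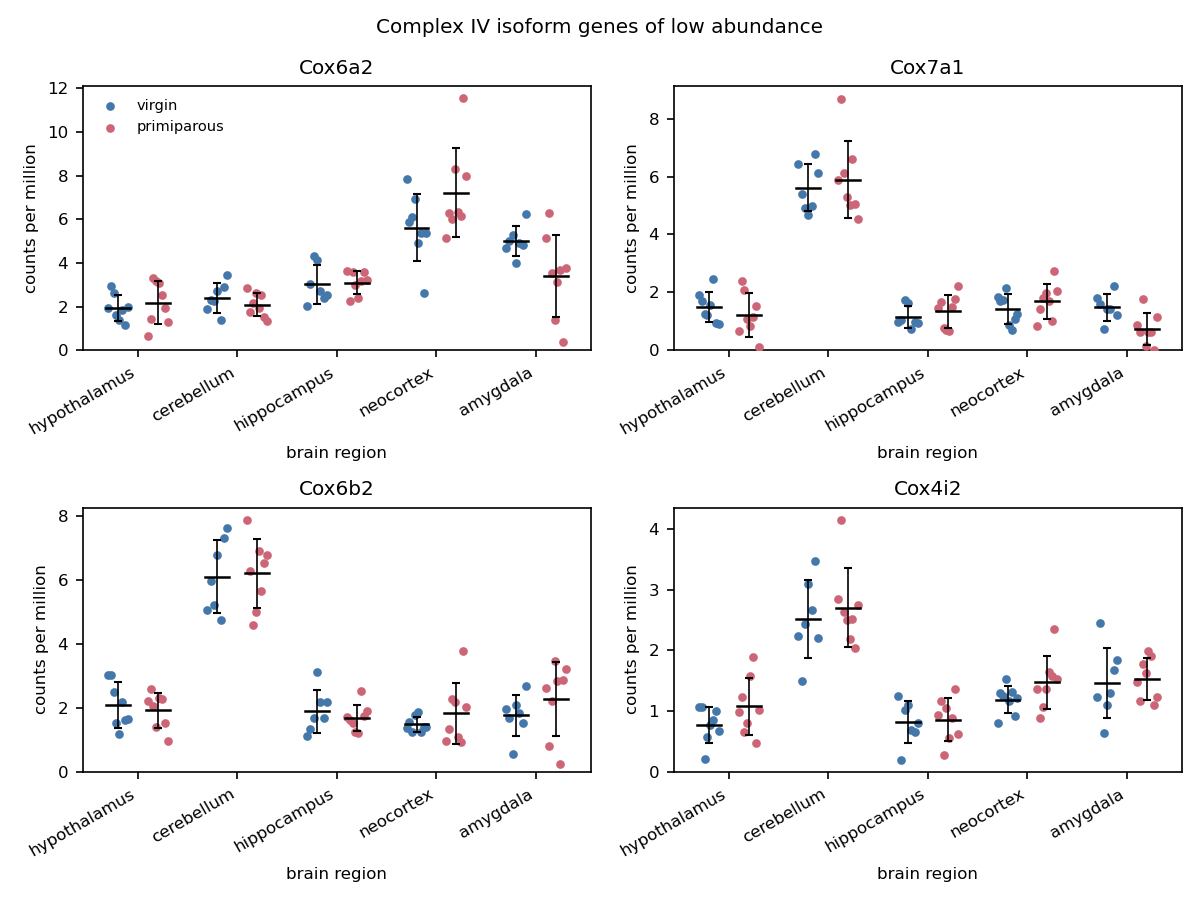
Levels of Cox6a2, Cox7a1, Cox6b2 and Cox4i2 in each library (vertical axes, CPM, starting at 0) for the 5 regions (horizontal axis), with a point for each virgin and primiparous library and a line and bar for each group's mean and SD. Cox7a1 and Cox6b2 are high in the cerebellum (region means 5.77 and 6.16 CPM), Cox6a2 is highest in the neocortex (6.42 CPM), and Cox4i2, which was not tested, is highest in the cerebellum (2.62 CPM).

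The mitochondrial genes differed most in the amygdala. Mt-Co1 averaged 18028 ± 3547 CPM (SD, n = 15) there and 12309 ± 2289 CPM in the neocortex, with log2 differences of 0.46 ± 0.056 in the amygdala, 0.35 ± 0.057 in the hippocampus, -0.24 in the neocortex, -0.26 in the hypothalamus and -0.31 in the cerebellum. Mt-Cytb followed with 0.54 ± 0.052 in the amygdala and 0.26 ± 0.053 in the hippocampus. The other 4 genes differed by more, as mt-Atp8 was at 2.14 ± 0.10 (edgeR adjusted p = 2.17e-30), mt-Co3 at 1.83 ± 0.075 (edgeR adjusted p = 2.72e-34), mt-Atp6 at 1.67 and mt-Co2 at 1.38 in the amygdala. These 4 genes are less well measured, since mt-Co3, mt-Atp6 and mt-Co2 share nearly all windows with pseudogenes and mt-Atp8 overlaps mt-Atp6. They summed to 702 CPM in the amygdala, against 27468 CPM for mt-Co1 and mt-Cytb. The part of shared windows in these differences was not tested, and region and pool cannot be told apart. Mt-Atp8 was 28.5 to 66.2 CPM in the amygdala and 3.35 to 26.8 CPM in all other libraries. In the cerebellum mt-Atp6 and mt-Co3 were the lowest, at -0.88 ± 0.097 and -0.84 ± 0.090, and in the hypothalamus mt-Atp8 was at -0.98 ± 0.13 and in the neocortex at -0.48 ± 0.12.

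Among nuclear genes of complex V, Atp5s was highest in the hypothalamus (16.99 ± 2.74 CPM, log2 difference 0.23 ± 0.053, edgeR adjusted p = 6.69e-05), and the other regions averaged 12.9 to 14.0 CPM with overlapping ranges. Atp5f1 was lowest in the amygdala (log2 difference -0.31 ± 0.038, edgeR adjusted p = 1.21e-11). Without the neocortex library 427, the counts of genes called against the other regions were 39 (hypothalamus, 78.6% of all genes), 41 (cerebellum, 83.1%), 25 (hippocampus, 67.5%), 39 (neocortex, 72.3%) and 34 (amygdala, 67.8%), and the 2 highest and 2 lowest log2 differences of each region kept their sign.

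Other genes of the pathway were taken from a list of 72, of which 69 were tested. In the hypothalamus 4 were higher and 9 lower in primiparous females, against the 22.6% of all genes called there, and in each other region 0 were called. With the number series covariate only 3 of 13016 genes were called in the hypothalamus, mt-Co1 among them. Most of these pathway calls were therefore lost in that fit. Among 14 citric acid cycle genes 2 were higher and 3 lower. Sucla2, a subunit of succinyl-CoA ligase, fell by 0.28 on the log2 scale (SE 0.058, edgeR adjusted p = 0.00297), and Idh3a, the catalytic subunit of NAD-dependent isocitrate dehydrogenase, by 0.18 (SE 0.047, edgeR adjusted p = 0.00874). Among 31 tested assembly factors 2 were higher and 3 lower, and Coa5, an assembly factor of complex IV, had the smallest p, with a fall of 0.24 (SE 0.050, edgeR adjusted p = 0.00340). Of 14 tested regulators of mitochondrial biogenesis 2 were lower, Ppargc1a, a coactivator that drives the expression of respiratory genes, and Esrrg, a nuclear receptor it works with. Higd1a was the 1 gene called, lower, of 3 supercomplex and associated genes. Cycs, the electron carrier between complexes III and IV, and the 6 nucleotide and phosphate carriers and pores were not called.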

How the data were processed

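RNA-seq of 5 brain regions from virgin and primiparous C57BL/6 mice was analysed from the table of raw counts per gene that the authors deposited. Per the study's methods, poly(A) RNA libraries from the NEBNext Ultra RNA kit were sequenced as single 100-base reads. The reads were aligned to mm10 with HISAT2 and counted with featureCounts from uniquely mapping reads. The kit is taken here not to mark strand, which the methods do not state. Whether featureCounts used strand is not given in the sources used here. The submitters' processing notes name these tools with CASAVA, edgeR and limma. Of 80 libraries the authors left out 3 as outliers (virgin, 1 each from hippocampus, cerebellum and amygdala), and 77 were used here, with 0 columns lacking a sample. The deposited log2 table served for gene symbols (11939 of the 13016 genes kept) and as an alternative scale. Its header names log2 of CPM plus 4, but its values equal log2 of the count divided by a size factor, plus 4, to within 5e-05.

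The 46 of 55 genes tested are those with at least 5 CPM in at least 8 libraries. Each region was fitted separately in edgeR 4.0.16 (R 4.3.3) with TMM normalization and the robust quasi-likelihood F-test, interaction terms between pairs of regions were fitted to 4 groups, and levels in 1 fit of 10 groups. Benjamini-Hochberg adjustment covered all 13016 genes, with a threshold of 0.05. The SE of a log2 fold change is its size divided by the square root of F. All p-values of the quasi-likelihood test are two-sided. Alternatives used limma 3.58.1 (voom), DESeq2 1.42.0, median-of-ratios scaling, totals from nuclear genes, no filter, an animal number series covariate, offsets from splines with 4 degrees of freedom on exon length and GC content (GENCODE M21, known for 97.0% of genes), the 10-group fit, leaving out libraries, and the animal as a replicate block. The labels give the same animal numbers in all regions, so animals pair the regions. Same-animal libraries of a pair of regions correlated with a median of 0.0119 to 0.0770 in their deviations from group means, against -0.0129 to -0.00268 for different animals. The fits of parity, interaction and level were tested on simulated data with known changes. Total counts per library ran from 7959192 to 37871854, and CPM values carry no counting interval because library spread was used throughout.

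The members, gene lists and alternatives were chosen with earlier results of these data known. Genes named are all mitochondrial genes, the 5 largest and 5 smallest log2 fold changes among those called in a region (all if at most 12), the gene with the smallest p where none was called and in each interaction, the 2 highest and 2 lowest log2 differences of each region, isoform pairs, and up to 3 other pathway genes per region. Further genes that passed the threshold were named after their values were seen. Shared 100-base windows were counted on spliced transcripts of the reference. Spike-in counts were not analysed here. Single oligodendrocyte markers called in the hypothalamus are given as counts, and 1 gene is not reported here.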

Additional observations from a re-analysis of the deposited data

Results flagged for a closer look

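A library that stood far from the others of its group was found in 12 of 140 groups of region, state and gene or sum that were examined, where chance gives about 1 in 20. Of these, 7 were the neocortex primiparous library 427. Its summed CPM of the nuclear genes was 12131, against 7159 to 8189 in the other 7 libraries. The same library had 367 CPM of Atp5g3 (198 to 234 in the others), 96.2 CPM of Atp5k (49.6 to 62.9), 126 CPM of Atp5l (57.6 to 81.9), 268 CPM of Cox5b (136 to 171), 150.4 CPM of Cox7c (64.8 to 84.1) and 151 CPM of Uqcr10 (71.7 to 109). Its 4.63% share of counts in short genes was the highest of the neocortex libraries.

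The amygdala primiparous library 413 had a summed nuclear CPM of 7182, against 6225 to 6509 in the others, and 70.4 CPM of Atp5d, against 51.4 to 59.2. Its share of counts in short genes was 2.80%, the highest of the primiparous amygdala libraries. The amygdala virgin library 409 had 87.4 CPM of Atp5l, against 58.5 to 70.1. In the hypothalamus, Atp5d stood at 92.6 CPM in the primiparous library 421, against 49.5 to 66.7, and Atp5k at 55.03 CPM in the virgin library 409, against 33.1 to 41.6.

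The interaction test found parity differences that themselves differed between regions for 11 genes between cerebellum and hypothalamus (5 of 40 nuclear, against 15.5% of all genes), 2 between cerebellum and amygdala (0.415%), 10 between hypothalamus and hippocampus (6 of 40 nuclear, against 17.2%) and 13 between hypothalamus and amygdala (8 of 40 nuclear, against 18.2%). These pairs share libraries of a region.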

How the results depend on the processing

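The number series covariate lowered the hypothalamic counts of genes called from 14 nuclear and 5 mitochondrial to 0 and 1, and the length and GC correction to 8 and 2. Leaving out 1 library gave 6 (primiparous 421, 16% of all genes) to 20 (virgin 409, 30.2%) nuclear genes. These libraries had the highest share of counts in short genes of their groups. It was 3.22% in primiparous 421 (group mean 2.86%) and 2.84% in virgin 409 (group mean 2.57%). The nuclear count was 8 without virgin 4488 and 9 without virgin 4491, and the mitochondrial count ran from 4 to 6. In the cerebellum the nuclear count of 1 became 5 with DESeq2 (3.88% of all genes), 2 with nuclear totals (0.715%) and 0 with the series covariate. With 1 library left out it was 0 (virgin 409 or 4486) to 11 (primiparous 4493, 6.94%). It was 2 without virgin 405 and 3 without primiparous 418. The cerebellar mitochondrial count of 0 became 2 with limma-voom (0.553% of all genes) and 5 with DESeq2 (3.88%). It became 3 with the length and GC correction (3.29%) and 2 in the fit of 10 groups (0.73%). With 1 library left out it was 0 to 6. It was 6 without primiparous 4493, 3 without virgin 405 or primiparous 418 and 2 without virgin 4488. In the amygdala DESeq2 called 2 nuclear genes, and 1 library left out gave 0 to 1 (without primiparous 413). Apart from hypothalamic libraries 421 and 409 and cerebellar library 4493, no share of all genes is given for the libraries left out. Those counts are therefore not set against all genes. The cause of these changes was not tested.

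With the animal as a replicate block, 1 gene differed between cerebellum and hippocampus, 1 between cerebellum and amygdala and 6 between hypothalamus and hippocampus. With the replicate block and the length and GC correction together, 5 genes differed between cerebellum and hypothalamus (5.18% of all genes), 1 between cerebellum and hippocampus (0.469%), 0 between cerebellum and amygdala (0.131%), 1 between hypothalamus and hippocampus (0.361%) and 7 between hypothalamus and amygdala (0.791%). Without the cerebellar library 4493, chosen after seeing the data, cerebellum and hippocampus differed in 7 genes (2.87% of all genes, against 0.169% with it). Cerebellum and amygdala then differed in 4 and cerebellum and hypothalamus in 14. Without the amygdala library 413, cerebellum and amygdala differed in 4. No share of all genes is given for the counts of 4, 14 and 4, so they are not set against all genes.

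Signs that turned belonged to genes that were not called. In the hippocampus the series covariate gave -0.019 for mt-Co1, -0.065 for mt-Co2, -0.057 for mt-Atp6, -0.075 for mt-Co3 and -0.016 for mt-Cytb. In the neocortex mt-Co2 was 0.013 with limma-voom and 0.092 with the length and GC correction, mt-Atp6 was 0.075 with that correction, and mt-Co3 was 0.016 with limma-voom, 0.11 with the correction and 0.00074 in the fit of 10 groups. In the amygdala mt-Atp8 was -0.026 with the correction. The other 108 counts recomputed stayed within 1.5 times, among them all counts of levels by region. Of the values of single genes, 451 kept direction and call, 19 lost the call and 17 gained it. Total counts of 7959192 to 37871854 per library set the counting precision.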

Other observations

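A pair of ATP synthase subunits carry older names in the table and fall outside the choice by symbol, and both were named after their values were seen. 2010107E04Rik (RefSeq symbol Atp5mpl) was lower in the primiparous hypothalamus, with a log2 fold change of -0.17 (edgeR adjusted p = 0.0476). Usmg5 (RefSeq symbol Atp5md) had a log2 fold change of 0.44 in the cerebellum (edgeR adjusted p = 0.0778) and was not called in any region.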
